A study of Mus musculus with 6 samples.

Results

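MHC class I and immunoproteasome genes were followed in mouse brown adipocytes exposed to rotenone, an inhibitor of complex I of the mitochondrial respiratory chain. The group was made of 10 named genes out of 26214 listed gene symbols, chosen by symbol, and all 10 were found in every count file. They were the class I heavy chain genes H2-K1 and H2-D1, the light chain gene B2m, the peptide transporter genes Tap1 and Tap2, the loading factor Tapbp, the peptide-trimming enzyme Erap1, and the immunoproteasome genes Psmb8, Psmb9 and Psmb10.

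The cells were an immortalized brown preadipocyte line, differentiated with insulin, T3, IBMX, dexamethasone and indomethacin, which both groups received, and treated on day 7. One group was given DMSO, the solvent, and the other 100 nM rotenone, each for 16 h, and each group had 3 deposited files. The 3 rotenone files held the same count for every gene, a difference below sampling noise, and were counted as 1 library, whereas pairs of DMSO libraries differed at 16837 to 16944 genes. All comparisons therefore set 3 DMSO libraries against 1 rotenone library, and the spread came from DMSO alone. No source used here says whether the line is a single clone or which mouse strain it came from. The strain matters for these genes because the class I heavy chains are among the most polymorphic genes of the mouse.

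MHC class I molecules display short peptides from inside the cell to cytotoxic T cells. The proteasome cuts proteins into peptides, TAP carries them into the endoplasmic reticulum (ER), Erap1 trims their ends, and tapasin (encoded by Tapbp) helps to fit them into a heavy chain paired with beta-2 microglobulin. Interferons raise most of these genes, and exchange the standard catalytic subunits of the proteasome for those encoded by Psmb8, Psmb9 and Psmb10. Adipocytes, like nearly all nucleated cells, carry class I molecules.

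The sequences just before the RefSeq starts of the 3 most abundant members are shown because these genes rose together, and the stretch between Psmb9 and Tap1 because Tap1 passed the test and Psmb9 did not. They are RefSeq promoter sequences on GRCm38.p6, read 5′ to 3′ on the gene's strand, or on the plus strand for the shared stretch. The H2-K1 stretch is chr17:34000348-34000597 (minus strand), H2-D1 chr17:35262844-35263093 (plus), B2m chr2:122147487-122147686 (plus), and the stretch between the RefSeq starts of Psmb9 and Tap1 chr17:34187331-34187555. Capitals mark matches, on either strand, to AANNGAAA, the core bound by interferon regulatory factors, and to a kappa B motif (GGGA, any 4 bases, then CC).
H2-K1: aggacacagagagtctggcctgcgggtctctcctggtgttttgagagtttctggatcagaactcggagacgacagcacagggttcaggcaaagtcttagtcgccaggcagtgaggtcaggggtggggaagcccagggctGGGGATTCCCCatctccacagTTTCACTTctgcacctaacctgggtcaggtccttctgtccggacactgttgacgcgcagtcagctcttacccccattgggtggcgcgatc
H2-D1: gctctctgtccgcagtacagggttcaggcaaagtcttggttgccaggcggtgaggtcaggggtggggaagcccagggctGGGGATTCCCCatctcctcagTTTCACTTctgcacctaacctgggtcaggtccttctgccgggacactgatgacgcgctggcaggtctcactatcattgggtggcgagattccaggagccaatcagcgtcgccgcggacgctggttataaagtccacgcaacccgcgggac
B2m: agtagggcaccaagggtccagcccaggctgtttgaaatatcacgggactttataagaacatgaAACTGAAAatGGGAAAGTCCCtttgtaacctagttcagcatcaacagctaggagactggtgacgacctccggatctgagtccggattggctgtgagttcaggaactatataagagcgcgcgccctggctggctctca
Tap1 and Psmb9: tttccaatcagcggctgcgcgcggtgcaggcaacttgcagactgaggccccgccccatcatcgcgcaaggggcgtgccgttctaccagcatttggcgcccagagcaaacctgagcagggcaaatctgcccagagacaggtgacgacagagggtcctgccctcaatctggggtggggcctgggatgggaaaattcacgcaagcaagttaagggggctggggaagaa
The best local alignment of the 250-base H2-K1 and H2-D1 stretches covered only part of them, and matched at 161 of 177 positions (91.0%). In the H2-K1, H2-D1 and B2m stretches, the kappa B run held 2 overlapping matches. Of the 9 members with a RefSeq promoter of 300 bases, 4 held AANNGAAA (H2-D1, H2-K1, B2m and Erap1) and 3 held the kappa B motif (H2-D1, H2-K1 and B2m), against 23.9% and 20.7% of all 32851 promoters. TTCNNNGAA, a STAT motif, was found in 1 member (Psmb8) and in 8.30% of promoters, and CCAAT in 6 members and 37.4% of promoters. A match shows letters, not binding.

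The libraries held 21611589 to 29194179 counts, so a count of 0 allowed up to 0.101 to 0.148 CPM (read counts scaled to TMM library sizes), which covers counting error only. All 10 adipocyte markers examined were detected, and with rotenone 1 rose and 6 fell, beside 27.6% and 28.5% of all tested genes. Those of preadipocytes and fibroblasts summed to 1330 to 1490 CPM in DMSO and 3722 CPM with rotenone. Col1a1 and Acta2 held most of that rotenone sum, at 2121 and 852 CPM. Of 10 such markers 6 rose and 1 fell, beside the same shares of all genes, and their part in the results below was not tested. The 1 that fell was the preadipocyte marker Pdgfra, by 1.11 ± 0.16 on the log2 scale. In bulk RNA, fewer cells of a type and less RNA per cell cannot be told apart. Among 11 leukocyte markers, Ptprc, Cd3e, Adgre1 and Cd52 had 0 counts in all libraries, and the list summed to 4.09 to 4.49 CPM in DMSO and 16.8 CPM with rotenone. Nearly all of that rotenone sum was Cd68, a lysosomal protein abundant in macrophages, at 15.5 CPM.

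The transcripts of the class I molecule itself were higher with rotenone, while of the 7 members that make, carry, trim or load peptides 2 rose, 1 fell and 4 did not pass. Of the 10 members, 5 rose (H2-D1, H2-K1, B2m, Tap1 and Psmb10) and 1 fell (Erap1) by edgeR's quasi-likelihood test at a Benjamini-Hochberg adjusted p under 0.05, beside 27.6% of all 14709 tested genes higher, 28.5% lower and 56.1% either way, so that the share of members called was near that of all genes. With library size scaling 4 rose and 2 fell, beside 22.1% and 35.0%. After a correction for transcript length and GC content 5 rose and 1 fell, beside 28.2% and 26.4%, and with DESeq2 again 5 and 1, beside 23.5% and 22.9%. The members' median log2 fold change was 0.30, against -0.040 for all tested genes. It was 0.19 after the length and GC correction, and 0.18 with library size scaling, where the median of all genes was -0.16. The rotenone library lay above all 3 DMSO libraries for 6 members and below them for 3, beside 41.5% and 44.7% of all tested genes. Together the members took 0.240%, 0.301% and 0.274% of all counts in DMSO replicates 1, 2 and 3, and 0.394% with rotenone. When a coefficient of variation of 20% was assumed for every library in place of the measured 6.9%, 3 members were called higher (H2-D1, B2m and Psmb10) and 0 lower, beside 9.57% and 14.0% of all genes.

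**Figure D1:**
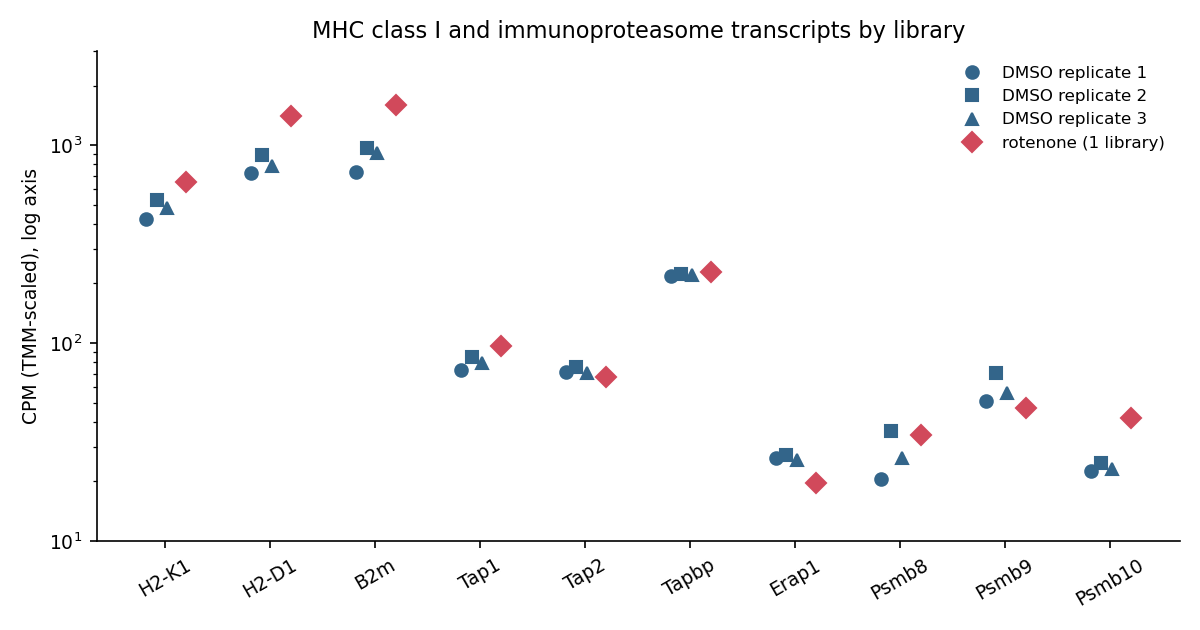
Levels of the 10 members in CPM on a log axis, with the 3 DMSO libraries as blue symbols and the single rotenone library as a red diamond. The rotenone library lies above all DMSO libraries for H2-K1, H2-D1, B2m, Tap1, Tapbp and Psmb10, below them for Tap2, Erap1 and Psmb9, and among them for Psmb8.

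H2-D1 (chromosome 17, 35262730 to 35267499, GRCm38, plus strand) encodes one of the classical heavy chains, which hold the peptide. It stood at 720, 896 and 784 CPM in DMSO replicates 1, 2 and 3, and at 1400 CPM with rotenone. All DMSO values lay well below the rotenone value. The log2 fold change was 0.81 ± 0.10 (SE; adjusted p = 4.2e-05, edgeR), or 1.75-fold, and this call was made under each of the 14 alternative settings.

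H2-K1 (chromosome 17, 33996017 to 34000347, minus strand), the other classical heavy chain gene listed among the members, stood at 425, 529 and 479 CPM in DMSO and 650 CPM with rotenone. The groups did not overlap, but the distance was smaller than for H2-D1. H2-K1 rose by 0.45 ± 0.10 on the log2 scale (adjusted p = 0.0023, edgeR). The call was lost with a 20% coefficient of variation (adjusted p = 0.34, edgeR).

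Within the libraries, the ratio of H2-D1 to H2-K1 counts was 1.69, 1.69 and 1.64 in DMSO and 2.15 with rotenone. H2-K1 made up 37.1%, 37.1% and 37.9% of the heavy chain counts in DMSO and 31.7% with rotenone (95% Wilson interval 31.3% to 32.2%, counting error only). The balance of the pair was thus even among DMSO libraries and different in the rotenone library. This ratio was examined after its values were seen and was not tested. No source used here says how reads shared between class I genes were assigned. Among 44 listed symbols that begin with H2, H2-Q7 and H2-Q9 had counts within 0.38% of each other in every library (903 and 903 with rotenone), and H2-T22 and H2-T9 within 7.06%. Values of such near-copies are therefore not separate measurements, and the division of reads among class I genes is uncertain.

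B2m (chromosome 2, 122147686 to 122153083, plus strand) encodes beta-2 microglobulin, the light chain shared by class I molecules. Its level was 732, 969 and 913 CPM in DMSO and 1605 CPM with rotenone, again without overlap. B2m rose by 0.88 ± 0.18 on the log2 scale (adjusted p = 0.0204, edgeR), or 1.84-fold. The call was lost without DMSO replicate 3 (adjusted p = 0.11, edgeR), which left DMSO replicates 1 and 2, the lowest and the highest. Heavy chain counts, H2-K1 and H2-D1 together, were 1.57, 1.47 and 1.38 times those of B2m in DMSO and 1.28 times with rotenone. This log2 ratio was 0.20 lower with rotenone (0.35) than the DMSO mean (0.56 ± 0.09, SD, n = 3), with an exact permutation p = 0.25, two-sided. That is the smallest p that 1 library against 3 can give, and 0.5 after Benjamini-Hochberg adjustment over the 4 ratios tested.

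Short transcripts were higher in general in the rotenone library, whose median log2 level relative to DMSO was 0.27 in the shortest decile of genes and -0.27 in the longest. The B2m transcript, at 860 bases, is the shortest among the members, and the Erap1 transcript, at 5644 bases, the longest. With the length and GC correction, the log2 fold changes were 0.64 for B2m, 0.64 for H2-D1, 0.25 for H2-K1 and 0.65 for Psmb10, all past the threshold. The log2 difference of heavy chains to B2m was then -0.13, against -0.20 without the correction. The H2-D1 to H2-K1 and Tap1 to Tap2 ratios were not corrected for length.

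Per kilobase of transcript, B2m was the most abundant member in DMSO at 1013 ± 144 CPM per kb (SD, n = 3). H2-D1 followed at 381 ± 42 CPM per kb and H2-K1 at 295 ± 32 CPM per kb. Tapbp stood at 76.3 ± 0.90, Psmb9 at 43.7 ± 7.6, Tap1 at 26.7 ± 2.1 and Tap2 at 21.1 ± 0.87 CPM per kb. Psmb10 at 17.9 ± 0.93 and Psmb8 at 16.9 ± 4.8 CPM per kb did not differ beyond their spread, and Erap1 was lowest at 4.68 ± 0.14 CPM per kb. The 3 transcripts of the finished class I molecule took 79.5% to 81.5% of all member counts in DMSO and 87.2% with rotenone.

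The transporter that feeds peptides into the ER is built from 1 Tap1 and 1 Tap2 chain. Tap1 (chromosome 17, 34187553 to 34197225, plus strand) stood at 73.0, 85.1 and 78.9 CPM in DMSO and 97.2 CPM with rotenone, and rose by 0.30 ± 0.08 on the log2 scale (adjusted p = 0.0053, edgeR). This call was lost with library size scaling (0.18, adjusted p = 0.087, edgeR) and with a 20% coefficient of variation (adjusted p = 0.56, edgeR). Tap2 (chromosome 17, 34203527 to 34216321, plus strand) gave 71.7, 76.1 and 70.4 CPM in DMSO and 67.6 CPM with rotenone. Its log2 fold change was -0.10 ± 0.08 (adjusted p = 0.29, edgeR), which did not pass. With library size scaling it was -0.22 and passed (adjusted p = 0.027, edgeR). The ratio of Tap1 to Tap2 counts was 1.02, 1.12 and 1.12 in DMSO and 1.44 with rotenone, a description made after its values were seen.

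Tapbp (chromosome 17, 33915899 to 33929292, plus strand) encodes tapasin, the bridge between the transporter and the waiting heavy chain. It was the steadiest member, at 219, 224 and 220 CPM in DMSO and 228 CPM with rotenone. The log2 fold change was 0.047 ± 0.065 (adjusted p = 0.56, edgeR) and its sign turned with library size scaling (-0.074). Tapbp exons share 904 bases with Gm19412 on the other strand and 149 bases with Zbtb22 on the same strand, so some reads may not be told apart.

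Erap1 (chromosome 13, 74639568 to 74693201, plus strand) encodes the ER aminopeptidase that shortens peptides to the length the groove accepts. Its level was 26.2, 27.3 and 25.7 CPM in DMSO and 19.6 CPM with rotenone, below every DMSO library. Erap1 fell by 0.43 ± 0.12 on the log2 scale (adjusted p = 0.0055, edgeR). After the length and GC correction the value was -0.19 and the call was lost (adjusted p = 0.195, edgeR), as it was with a 20% coefficient of variation (adjusted p = 0.397, edgeR). Erap1 exons share 834 bases with Cast on the other strand, and no source used here says whether strand was used in counting.

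Of the 3 immunoproteasome genes, 1 rose and 2 did not pass. Psmb10 (chromosome 8, 105935735 to 105938444, minus strand) encodes the inducible counterpart of Psmb7 and stood at 22.5, 24.8 and 22.99 CPM in DMSO and 41.9 CPM with rotenone. It rose by 0.84 ± 0.11 on the log2 scale (adjusted p = 2.3e-06, edgeR), or 1.79-fold, and was called under each of the 14 alternative settings. In a test against a 1.5-fold change, H2-D1 and Psmb10 were the 2 members called higher (adjusted p = 0.035 and 0.023, edgeR), beside 8.18% of all genes, and 0 were called lower, beside 11.8%.

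Psmb8 (chromosome 17, 34197721 to 34201454, plus strand), the inducible counterpart of Psmb5, was the most variable member in DMSO, at 20.5, 36.0 and 26.3 CPM, and stood at 34.2 CPM with rotenone. The rotenone value lay inside the DMSO range. The log2 fold change was 0.31 ± 0.40 (adjusted p = 0.57, edgeR). Without DMSO replicate 2 it was 0.55 and the call was gained, with the spread taken from the other DMSO replicates alone.

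Psmb9 (chromosome 17, 34181987 to 34187764, minus strand), the inducible counterpart of Psmb6, stood at 50.9, 70.6 and 55.7 CPM in DMSO and 47.1 CPM with rotenone, just below the lowest DMSO library. The log2 fold change was -0.33 ± 0.19 (adjusted p = 0.21, edgeR). It passed with 3 settings. These were the length and GC correction at -0.52 (adjusted p = 0.022, edgeR), no filter on low counts, and leaving out DMSO replicate 1. Without the filter the log2 fold change stayed at -0.33, so the fitted spread had changed rather than the effect. Without DMSO replicate 1 it was -0.42, with the spread taken from the other DMSO replicates alone. Psmb9 and Tap1 start 225 bases apart on opposite strands in RefSeq, the shared stretch printed above. In the GENCODE annotation their exons overlap by 212 bases, so a few reads may not be told apart.

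**Figure D2:**
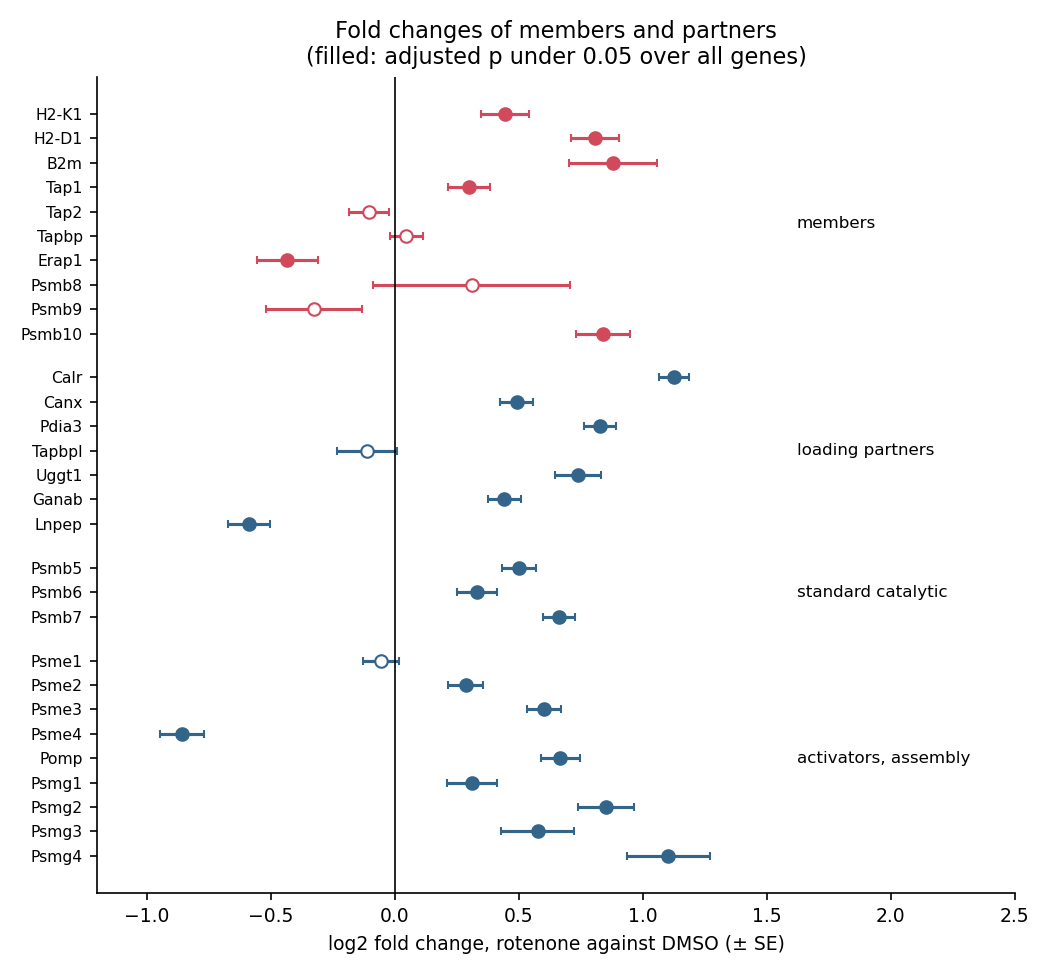
Log2 fold changes (± SE) of rotenone against DMSO for the 10 members (red) and for partners in peptide loading and in the proteasome (blue), with filled points past an adjusted p of 0.05. Psmb10 lies at 0.84 while Psmb8 and Psmb9 lie at 0.31 and -0.33 with open points, and the 3 standard catalytic subunits lie between 0.33 and 0.66.

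The standard catalytic subunits, whose places the immunoproteasome subunits take, all rose. Psmb5 had a log2 fold change of 0.50 ± 0.07, Psmb6 of 0.33 ± 0.08 and Psmb7 of 0.66 ± 0.07 (adjusted p = 6.5e-06, 0.0016 and 8.2e-08, edgeR). None of the 3 passed with a 20% coefficient of variation. With the length and GC correction their log2 fold changes were smaller, at 0.22 for Psmb5 and 0.40 for Psmb7, both past the threshold, and 0.054 for Psmb6, which was not (adjusted p = 0.55, edgeR). Ratios within a library do not depend on scaling, but they can depend on transcript length. The count ratio of Psmb9 to Psmb6 was 0.406, 0.489 and 0.437 in DMSO and 0.283 with rotenone, 0.65 lower on the log2 scale with rotenone (-1.82) than the DMSO mean of -1.18 ± 0.13 (SD, n = 3; exact permutation p = 0.25, adjusted 0.5). For Psmb10 to Psmb7 the count ratio was 0.128, 0.143 and 0.139 in DMSO and 0.154 with rotenone (exact permutation p = 0.5, adjusted 0.67). For Psmb8 to Psmb5 it was 0.0975, 0.152 and 0.12 in DMSO and 0.109 with rotenone, inside the DMSO range (exact permutation p = 0.75, adjusted 0.75). Thus Psmb9 stood lowest against its standard counterpart in the rotenone library, and the other pairs lay inside or close to the DMSO range. After the length and GC correction the log2 differences were -0.57 for Psmb9 to Psmb6, 0.24 for Psmb10 to Psmb7 and -0.10 for Psmb8 to Psmb5.

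**Figure D3:**
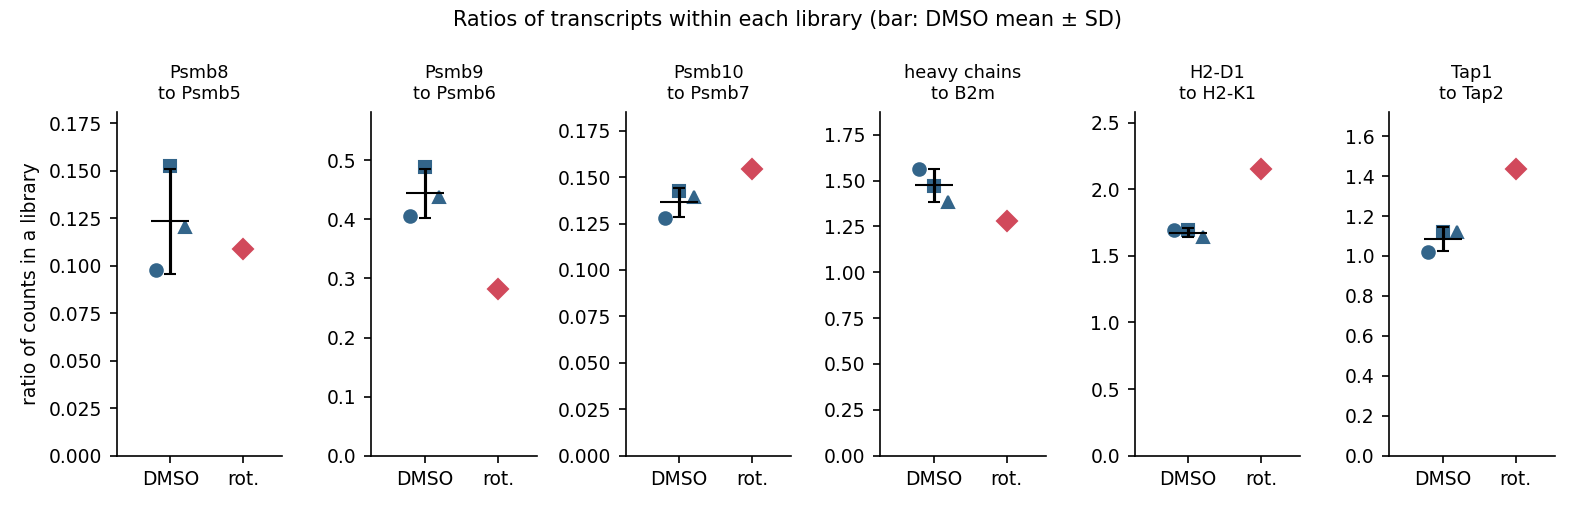
Ratios of counts within each library for 6 pairs, with DMSO libraries in blue (bar, mean ± SD) and rotenone in red, on axes that start at 0. The Psmb9 to Psmb6 ratio is 0.283 with rotenone against 0.406 to 0.489 in DMSO, and the H2-D1 to H2-K1 ratio is 2.15 against 1.64 to 1.69.

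Other proteasome transcripts were measured beside them. Of 11 further subunits of the proteasome core, 8 rose and 1 fell, beside 27.6% and 28.5% of all genes, with a median log2 fold change of 0.41. After the length and GC correction the median was 0.21, with 6 higher and 2 lower, beside 28.2% and 26.4%. Psma1 was the one that fell (-0.65 ± 0.07), and the largest rise was that of Psmb3 (0.80 ± 0.07). Of 9 activators and assembly factors, 7 rose and 1 fell, with a median of 0.58, against the same shares of all genes. After that correction 4 rose and 2 fell, with a median of 0.30. The assembly chaperone genes Psmg4 and Psmg2 rose by 1.10 ± 0.17 and 0.85 ± 0.11, and Pomp, a core maturation factor, by 0.67 ± 0.08. The PA28 activator, which works with the immunoproteasome, is made from Psme1 and Psme2. Psme2 rose by 0.29 ± 0.07 (adjusted p = 0.0018, edgeR), while Psme1 gave -0.055 ± 0.072 (adjusted p = 0.53, edgeR). After the length and GC correction Psme2 gave 0.0077 and its call was lost (adjusted p = 0.93, edgeR), and Psme1 gave -0.33 and was called lower (adjusted p = 0.0006, edgeR). The Psme2 call was also lost with library size scaling (adjusted p = 0.0525, edgeR), with which Psme1 passed (adjusted p = 0.0475, edgeR). Psme4, the PA200 activator, fell by 0.86 ± 0.09. With a 20% coefficient of variation, 0 of the 11 core subunits were called either way. Of the activators and assembly factors 2 were then called higher and 0 lower, beside 9.57% and 14.0% of all genes.

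Of 7 partners in peptide loading and trimming, 5 rose and 1 fell, beside 27.6% and 28.5% of all genes, with a median log2 fold change of 0.49. With a 20% coefficient of variation 2 were called higher (Calr and Pdia3) and 0 lower, beside 9.57% and 14.0%. Calr encodes calreticulin, a chaperone of the loading complex, and stood at 384, 376 and 377 CPM in DMSO and 827 CPM with rotenone, a log2 fold change of 1.13 ± 0.06. Pdia3, the oxidoreductase bound to tapasin, rose by 0.83 ± 0.07, and the chaperone gene Canx by 0.49 ± 0.07. Uggt1, which checks glycoprotein folding, rose by 0.74 ± 0.09 and the glucosidase gene Ganab by 0.44 ± 0.07. These chaperones serve many glycoproteins besides class I. Tapbpl, a relative of tapasin that edits peptides, gave -0.11 ± 0.12 and did not pass (adjusted p = 0.44, edgeR). The 1 that fell was Lnpep, an aminopeptidase that trims peptides in endosomes, by 0.59 ± 0.08.

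Non-classical class I and class I-like genes gave 4 higher and 2 lower of 19 tested, of 24 listed, beside 27.6% and 28.5% of all genes, with a median log2 fold change of 0.37. Of the 5 not tested, 4 had 0 counts in all libraries. H2-K2 rose by 1.05 ± 0.13, H2-Q8 by 1.05 ± 0.21, H2-Q6 by 0.93 ± 0.20 and H2-Q4 by 0.90 ± 0.16, though reads may be shared among these copies. The H2-Q4 call was lost without DMSO replicate 3 (adjusted p = 0.085, edgeR). H2-Q10 fell by 1.41 ± 0.44, with 26 counts in the rotenone library, and Mr1, which presents vitamin B metabolites, fell by 0.80 ± 0.11. The median was 0.26 without DMSO replicate 1 and 0.47 without DMSO replicate 2.

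**Figure D4:**
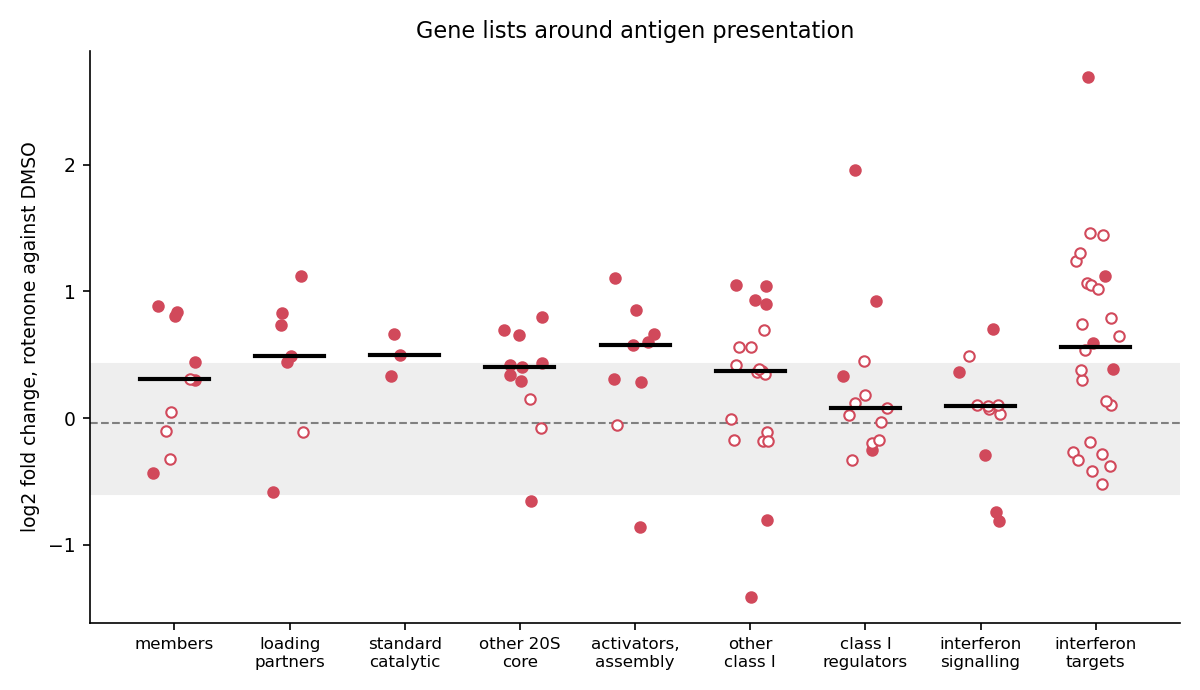
Log2 fold changes of the tested genes in 9 lists, filled where past an adjusted p of 0.05, with a black bar at each list's median. The dashed line is the median of all 14709 tested genes (-0.040) and the gray band their middle 50%. The members' median is 0.30 and that of interferon targets 0.56, most of whose points are open.

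Of 13 regulators of class I transcription, 3 rose and 1 fell (Nfyc, -0.25 ± 0.10), beside 27.6% and 28.5% of all genes, with a median log2 fold change of 0.080, which was -0.041 with library size scaling. With library size scaling 2 rose and 4 fell, beside 22.1% and 35.0% of all genes. After the length and GC correction 5 rose and 1 fell, beside 28.2% and 26.4%. Without DMSO replicate 2 the median was 0.057. Irf1, an interferon-induced factor that activates class I promoters, stood at 63.2, 61.6 and 59.7 CPM in DMSO and 240 CPM with rotenone. The DMSO libraries were close together and far below the rotenone library, and Irf1 rose by 1.96 ± 0.07 (adjusted p = 2.5e-14, edgeR). Rfxap, a subunit of the RFX complex that binds class I and II promoters, rose by 0.92 ± 0.13, and Irf2 by 0.33 ± 0.12. The Irf2 call was lost with library size scaling (adjusted p = 0.14, edgeR), and that of Nfyc without DMSO replicate 1 or 2 (adjusted p of up to 0.0896, edgeR). Both calls were also lost with DESeq2, and they held in 9 (Irf2) and 7 (Nfyc) of 14 alternative settings. Nlrc5, the class I transactivator, stood at 12.2, 16.5 and 10.9 CPM in DMSO and 18.1 CPM with rotenone, a log2 fold change of 0.45 ± 0.19 that did not pass (adjusted p = 0.054, edgeR). It passed with 5 of 14 alternative settings, among them the length and GC correction (adjusted p = 0.041, edgeR) and leaving out DMSO replicate 2. The kappa B factor genes Rela and Nfkb1 gave 0.079 ± 0.089 and 0.021 ± 0.12, and the sign of each turned with library size scaling.

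Of 11 interferon receptor and signalling genes, 2 rose and 3 fell, beside 27.6% and 28.5% of all genes, with a median of 0.10, which was -0.025 with library size scaling. With a 20% coefficient of variation 0 were called either way, beside 9.57% higher and 14.0% lower of all genes. After the length and GC correction 4 rose and 2 fell, beside 28.2% and 26.4%. Ifngr1, the ligand-binding chain of the interferon gamma receptor, fell by 0.81 ± 0.10, the kinase gene Tyk2 by 0.74 ± 0.13 and Ifnar1 by 0.29 ± 0.09. The Ifnar1 call was lost after that correction (adjusted p = 0.18, edgeR). Ifnar2 and the feedback inhibitor Socs3 rose by 0.36 ± 0.09 and 0.70 ± 0.18.

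Interferon-induced genes had a median log2 fold change of 0.56, but few passed the test. The rotenone library lay above all 3 DMSO libraries for 16 of the 26 tested and below them for 6, beside 41.5% and 44.7% of all genes. Of 27 listed, 26 were tested and Gbp4 had 0 counts in all libraries. Of these 26, 4 rose and 0 fell, beside 27.6% and 28.5% of all genes. The median was 0.52 without DMSO replicate 1, 0.80 without replicate 2 and 0.49 without replicate 3. The number of calls changed much between these fits, whose spread came from the remaining DMSO replicates alone, and is not further evidence. A 20% coefficient of variation is below the DMSO spread of several of these genes. With it 8 rose and 0 fell, beside 9.57% and 14.0% of all genes. Cxcl10, a chemokine for activated T cells, stood at 3.82, 2.42 and 2.81 CPM in DMSO and 19.6 CPM with rotenone, and rose by 2.70 ± 0.22. The other 3 were Mx2 (1.13 ± 0.33), Ifi35 (0.59 ± 0.13) and the RNA sensor gene Ddx58 (0.38 ± 0.13), whose call was lost with library size scaling (adjusted p = 0.097, edgeR). Bst2, which tethers budding viruses and was named after its values were seen, had 70.4, 156 and 114 CPM in DMSO and 310 CPM with rotenone. Its log2 fold change of 1.45 ± 0.58 did not pass (adjusted p = 0.17, edgeR).

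All 10 members were highest in DMSO replicate 2, which was the highest of the 3 for 33% of all tested genes. Replicate 1 was the lowest for 8 members, and for 5068 of all 14709 tested genes. The lead of replicate 2 was small for Tapbp (219, 224 and 220 CPM) and for Erap1 (26.2, 27.3 and 25.7 CPM). Of the 26 interferon targets, 22 were also highest in replicate 2, and they summed to 455, 731 and 496 CPM in DMSO replicates 1, 2 and 3 and to 977 CPM with rotenone. Relative to the DMSO mean, the median member level in DMSO replicates 1, 2 and 3 was -0.13, 0.13 and -0.02 on the log2 scale, and 0.32 with rotenone. For interferon targets these medians were -0.15, 0.36, -0.16 and 0.56. Psmb8 had a DMSO coefficient of variation of 28.4%, larger than that of 99.5% of 10890 genes with a DMSO mean of at least 5 CPM, and B2m one of 14.2%. Tapbp varied by 1.19% and Psmb10 by 5.21%, against a median of 5.43%. The part of this difference between DMSO libraries in the result was not tested. With rotenone, 6 of the 10 members lay above all 3 DMSO libraries and 3 below them (Psmb9, Tap2 and Erap1). Relative to the DMSO mean, B2m was at 0.16 in replicate 2 and 0.89 with rotenone, and Psmb9 at 0.27 and then -0.31. Of the 26 interferon targets, 16 lay above all DMSO libraries with rotenone and 6 below them. Oasl2 was at 0.87 in replicate 2 and 1.42 with rotenone, and Irf7 at 0.62 and then 1.12. Ifih1 was at 0.35 and then -0.47, and Gbp7 at 0.38 and then -0.37. These 4 targets were named after their values were seen. Irf1 was highest in DMSO replicate 1, and all 7 partners in peptide loading and trimming were lowest in replicate 2.

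**Figure D5:**
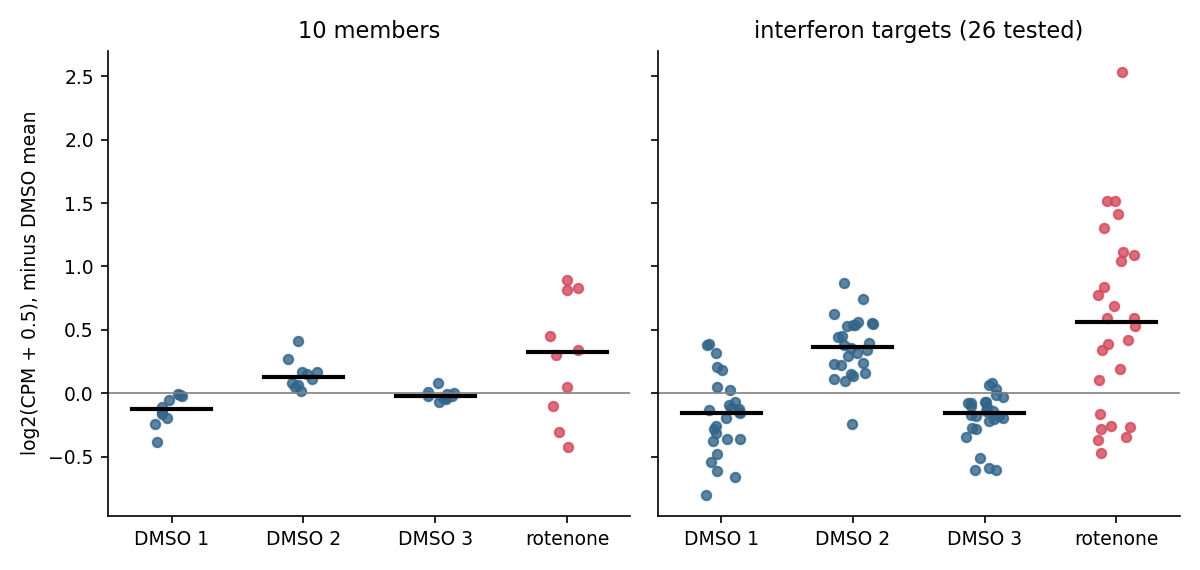
Level of each gene in each library as log2(CPM + 0.5) minus the mean over the 3 DMSO libraries, for the 10 members (left) and 26 interferon targets (right), with black bars at the medians. In DMSO replicate 2 every member lies above 0 and the interferon targets have a median of 0.36, and with rotenone the medians are 0.32 and 0.56.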

How the data were processed

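Gene counts from 6 files were used, 3 per group by the titles. The deposited values are whole-number read counts per gene symbol, not normalized. Per the submitters' processing notes, TopHat2 and build mm10 were used, and no source used here gives the counter, annotation, strand setting or versions. The labels call the replicates independent, but nothing says that they were separate cultures, so p-values measure the spread between libraries, which may be technical.

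Counts were scaled by TMM and filtered with filterByExpr in edgeR 4.0.16 (R 4.3.3), leaving 14709 genes, all 10 members included. Rotenone was tested against DMSO by robust quasi-likelihood F tests, which had 2 residual degrees of freedom. Adjustment was by Benjamini-Hochberg over all tested genes. The SE is the log2 fold change divided by the square root of F. The comparison assumes that rotenone libraries vary like DMSO libraries. The length and GC correction subtracted, for each library, the median log ratio in 8 by 8 bins over 14216 genes, using the longest coding transcript in GENCODE M21 (GRCm38), which also gave positions. The scripts were tested on simulated counts. Alternatives included DESeq2 1.42.0.

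Members and lists were chosen with earlier results of these data known. All members and genes of the short partner lists could be named, and from longer lists up to 4 with the largest changes past the threshold. H2-Q4, Mr1, Bst2, Oasl2, Irf7, Ifih1, Gbp7, H2-DMb1 and the near-copies H2-Q7, H2-Q9, H2-T9 and H2-T22 were named after their values were seen. Some single genes of the lists are not reported here.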

Additional observations from a re-analysis of the deposited data

How the results depend on the processing

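No paired analysis was possible because the 3 rotenone files are identical and carry no replicate of their own. Of 140 values of single members under 14 alternatives, 11 lost the call, 5 gained it and 1 reversed (Tapbp, -0.074 with library size scaling; the cause was not tested). With a 20% coefficient of variation, 1408 genes were higher and 2063 lower, against 4054 and 4197; members were 3 and 0, and genes of the 9 other lists 19 and 2, against 37 and 9. Against a 1.5-fold change these counts were 1203 and 1731, 2 and 0, and 11 and 3. Fewer calls follow by construction from the test against a 1.5-fold change. The assumed 20% is above the measured 6.9%, but not above the spread of every gene, and interferon targets called higher went from 4 to 8 with it. With library size scaling, which moved the median of all genes from -0.040 to -0.16, 2 members and 19 genes of other lists were lower, and 3245 genes were higher and 5153 lower. Without a low-count filter 2 members were lower. Leaving out 1 DMSO replicate gave 1 to 2 members lower, 8 to 14 genes of other lists lower and 36 to 55 higher (55 without replicate 1, 54 without replicate 2), a member median of 0.20 to 0.44, and a Psmb8 to Psmb5 log2 difference of -0.31 to 0.011 (main -0.15); the cause was not tested. Fits without 1 DMSO replicate took their spread from the remaining DMSO replicates alone, so calls gained there are not further evidence. With 1 rotenone library no spread within that group could be measured.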

Other observations

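MHC class II genes, the antigen-presenting system of professional immune cells, were low or absent, at 15.9 to 18.6 CPM in sum in DMSO and 19.7 CPM with rotenone. H2-Aa and H2-Ob had 0 counts in all libraries, and the class II transactivator Ciita had 0 counts with rotenone and at most 0.27 CPM in DMSO. Of 10 listed, 6 were tested, 1 rose and 0 fell, beside 27.6% and 28.5% of all genes. Cd74, the invariant chain, stood at 2.87, 3.56 and 3.37 CPM in DMSO and 7.64 CPM with rotenone and rose by 1.22 ± 0.25 (adjusted p = 0.00034, edgeR). H2-DMb1, a peptide exchange factor, had 11.7, 10.2 and 9.70 CPM in DMSO and 9.21 CPM with rotenone, a log2 fold change of -0.20 ± 0.19 that did not pass (adjusted p = 0.38, edgeR). The genes Psmb9, Tap1, Psmb8 and Tap2 lie together in 34335 bases of chromosome 17, between H2-DMb1 and H2-Ob.

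Among 10754 genes outside the lists with a mean of at least 5 CPM, those whose profile over the 4 libraries lay nearest to the members' median profile were Hikeshi, Esrrg and Nol9, with Euclidean distances of 0.024, 0.033 and 0.036 on the log2 scale. None of these 3 passed the threshold (adjusted p = 0.053, 0.19 and 0.091, edgeR). The profile is set mainly by the single rotenone library.

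Endothelial markers summed to 6.61 to 7.60 CPM in DMSO and 13.2 CPM with rotenone. Of 7, 3 were tested and 2 rose, Eng (1.25 ± 0.33) and Egfl7 (0.62 ± 0.23), beside 27.6% of all genes. Pecam1 stood at 0.27, 0.45 and 0.19 CPM in DMSO and 0.39 CPM with rotenone, and Tie1 had 0 counts in all libraries. The Egfl7 call was lost with library size scaling, DESeq2 and the length and GC correction (adjusted p = 0.067, 0.102 and 0.077).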
